A study of Homo sapiens with 18 samples.

Results

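The matrix metalloproteinases (MMP), the ADAM proteins and the ADAMTS proteins are related families of zinc-dependent proteases and their inactive relatives. Members were the protein-coding genes of the count table whose symbol was MMP, ADAM or ADAMTS followed by a number, with an optional A or B for the MMP genes. The rule used the names alone and gave 62 of 58870 genes, of which 23 were MMP, 20 were ADAM and 19 were ADAMTS genes.

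MMP enzymes cleave collagens and other matrix proteins, either after secretion or from the cell surface, where the membrane-type (MT) MMPs are anchored. ADAM proteins sit in the plasma membrane, and those with a catalytic zinc site release the outer parts of growth factors, cytokines and adhesion molecules, a step called shedding. ADAMTS proteins are secreted, and cleave proteoglycans, procollagens and other matrix proteins. In melanoma these families are studied for matrix breakdown, invasion and the release of cell-surface proteins.

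RNA was sequenced from WM164, SKMEL28 and A375 cells, established human melanoma lines that overexpressed either GFP, a fluorescent protein serving as the control, or MAFG, a small MAF transcription factor that binds DNA as a dimer. Each of the 6 conditions had 3 libraries, 18 in all. Per the methods, the transgenes came from lentiviral vectors with the EF1α promoter and blasticidin selection, and the MAFG protein carried a Myc-DDK tag, so the control cells were also transduced. All cells grew in RPMI with serum. Nothing in the labels says that the replicates came from separate cultures, so the p-values measure the spread between these libraries, which may be technical.

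The total count per library ranged from 20122172 to 39025042. Levels within a line are given as CPM, the count scaled to the normalized size of its library. MAFG mRNA was at 24.2, 27.1 and 21.7 in the GFP libraries of WM164 and at 52.9, 52.4 and 45 in the MAFG libraries (log2 fold change 1.04, adjusted p = 6.37e-08, edgeR). In SKMEL28 it was at 25.1, 24.7 and 19.3 with GFP and at 37.2, 34.2 and 35.7 with MAFG (log2 fold change 0.64, adjusted p = 1.28e-04, edgeR). In A375 it was at 26.3, 27.3 and 36.5 with GFP and at 60.3, 53.8 and 42.8 with MAFG (log2 fold change 0.80, adjusted p = 0.0655, edgeR). Each p is from the quasi-likelihood test of edgeR and carries a Benjamini-Hochberg adjustment over the genes tested. The groups did not overlap in any line, but the A375 difference missed the threshold of 0.05. It passed with DESeq2 (adjusted p = 7.8e-04), in the edgeR model of all 18 libraries (adjusted p = 0.00134) and in edgeR without A375 MAFG replicate 1 (log2 fold change 0.69, adjusted p = 0.0247). In TPM, a transcript level that allows for length, the difference was larger. MAFG went from 2.89 ± 0.543 with GFP to 24.5 ± 3.34 with MAFG in WM164, from 3.96 ± 0.641 to 17 ± 2.66 in SKMEL28 and from 4.22 ± 0.291 to 25.2 ± 2.88 in A375, ratios of 8.48, 4.29 and 5.98. By limma on log2(TPM + 1) the adjusted p was 1.02e-06, 2.86e-04 and 6.43e-04, and the cause of the gap between the scales was not tested.

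Among the A375 MAFG libraries, replicate 1 stood apart. The mean chi-square per gene, near 1 under sampling noise alone, was 68.7 and 96.7 against its fellow replicates, which differed from each other by 15.8. The log2 fold changes of MAFG, MMP2, MMP1, MMP16, MMP14, TIMP3 and PLAT in A375 are therefore given with and without it. The share of mitochondrial counts was 27.1% to 27.4% in WM164 GFP and 23.1% to 25.9% in WM164 MAFG libraries, and 23.7% to 25.4% in SKMEL28 GFP and 27.3% to 29.1% in SKMEL28 MAFG libraries. The summed CPM of 6 melanocyte lineage markers was 4480 to 4830 with GFP and 2420 to 2560 with MAFG in WM164, 4510 to 4760 and 3740 to 3990 in SKMEL28, and 35.3 to 41.5 and 119 to 172 in A375, where MLANA and TYR were at 0. The markers did not move as 1. In A375, mean SOX10 went from 8.85 to 114 CPM, while MITF was at 28.6 and 27.4 CPM. In SKMEL28, PMEL (1700 to 1070), MITF (648 to 564), TYR (170 to 144) and DCT (695 to 663) were lower with MAFG. MLANA (510 to 524) and SOX10 (892 to 910) were not lower there, and SOX10 in WM164 was at 1370 and 1330 CPM. The part of these shifts in the protease results was not tested. Summed markers of epithelium, leukocytes and endothelium were at most 1.44 CPM in any library, and those of fibroblasts at most 21.3 CPM.

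A large part of the members had few or no counts. ADAM2, ADAM7, ADAM18, ADAM29, ADAMTS19, MMP7, MMP12 and MMP26 had 0 counts in all 18 libraries, and ADAM30 and ADAMTS8 never exceeded 3 counts. In TPM, the members with a mean of at least 1 with GFP numbered 15 (WM164), 16 (SKMEL28) and 14 (A375), and 18, 16 and 14 with MAFG. MMP9, a gelatinase, had at most 8 counts in any library and was not tested in any line.

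**Figure D1:**
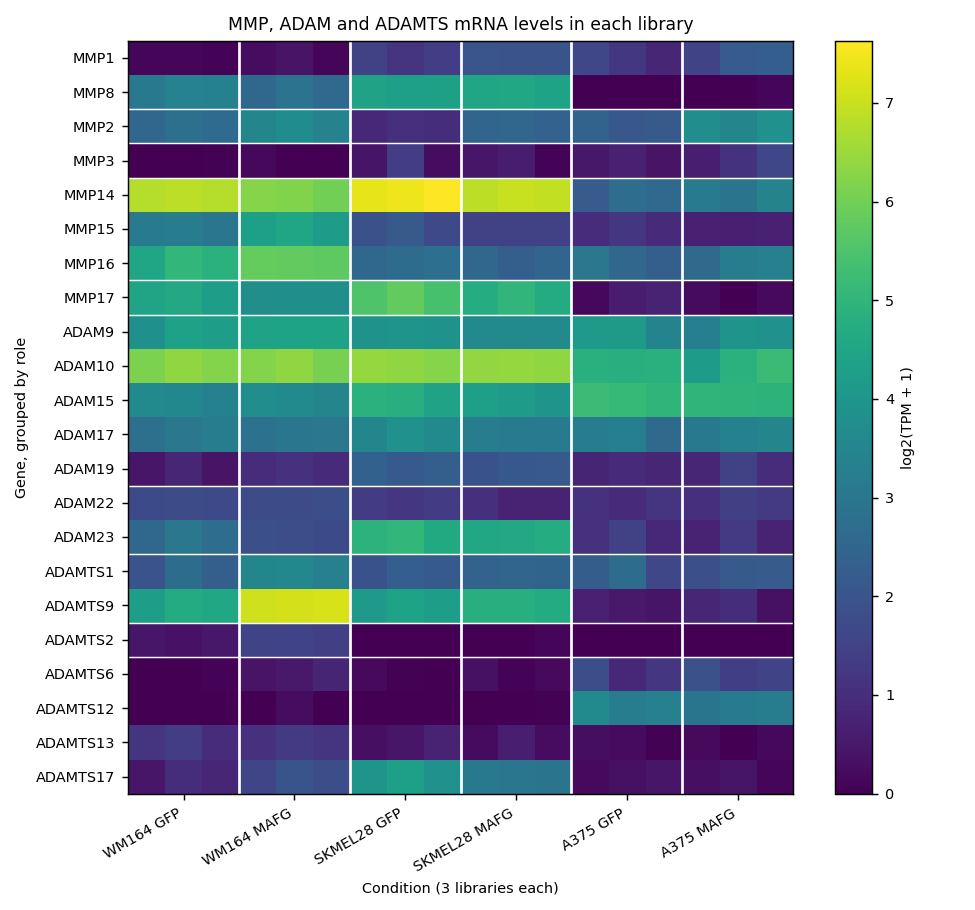
Each row is 1 of the 22 members with a mean TPM of at least 1 in some condition, grouped by role, each column is 1 of 18 libraries, and colour gives log2(TPM + 1). MMP14 and ADAM10 stand out in WM164 and SKMEL28, ADAM15 and ADAM10 in A375, and ADAMTS9 brightens in the 3 WM164 MAFG libraries.

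In GFP cells the 3 lines carried different proteases. MMP14, the membrane-type MMP also called MT1-MMP, which cleaves collagen and activates MMP2, led in WM164 (110 ± 3.58 TPM, SD, n = 3) and in SKMEL28 (177 ± 18.7 TPM). ADAM10, a broadly expressed sheddase, came next at 74.7 ± 6.37 TPM in WM164 and 80.5 ± 4.88 TPM in SKMEL28. In A375, ADAM15 was highest at 33.5 ± 2.92 TPM, above ADAM10 at 27.5 ± 0.0954 TPM, with no overlap of their libraries, and MMP14 stood at 4.79 ± 1.11 TPM.

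The lower places were less distinct. In WM164, MMP16 (27.5 ± 5.52 TPM), ADAMTS9 (21.9 ± 3.36 TPM) and MMP17 (20.8 ± 2.57 TPM) overlapped with their neighbours in the order. In A375, ADAM9 (14.2 ± 3.64 TPM) overlapped with ADAMTS12 (9.48 ± 1.55 TPM). The summed TPM of all 62 members with GFP came to 329 ± 28.5 for WM164, to 460 ± 17.1 for SKMEL28 and to 123 ± 13.9 for A375.

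Differences between the lines were tested on counts in a model of all 18 libraries, in which 38 members could be tested. A gene was called where the adjusted p did not exceed 0.05 and the log2 fold change was beyond 1 in either direction. Between A375 and WM164, 25 members were called, 9 higher and 16 lower in A375, which is 65.8% of those tested against 46.7% of all genes tested (20.6% higher and 26% lower). Between A375 and SKMEL28, 22 were called, 11 in each direction (57.9%, against 43.8% of all genes, 19.4% higher and 24.4% lower). Between WM164 and SKMEL28, 20 were called, 14 higher and 6 lower in WM164 (52.6%, against 28.7% of all genes, 15.2% higher and 13.5% lower). The count filter let in genes counted almost only in 1 line, such as ADAMTS12 with 9264 counts in A375 GFP libraries and 1 in WM164. Such entry favours a call between lines, for members and for all genes alike. Where every library needed 10 counts, 17 members were tested, and 11, 12 and 9 were called in the 3 comparisons.

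Several MMPs of the other lines were low or at 0 in A375. MMP14 had a log2 fold change of -5.14 ± 0.12 (standard error) in A375 against WM164 (adjusted p = 6.73e-19) and a value of -5.53 against SKMEL28 (adjusted p = 2.54e-19), by the edgeR test. MMP17, a GPI-anchored MMP, had log2 fold changes of -6.56 and -7.18 in the same comparisons. MMP8, the neutrophil collagenase, had 0 counts in the 3 A375 GFP libraries, against 3323 counts in all in WM164 and 4704 in SKMEL28, so it was at least 1470-fold and at least 2190-fold lower, computed against 3 counts over the group.

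ADAMTS12, a secreted protease with several thrombospondin repeats, showed the opposite order. It had 9264 counts over the A375 GFP libraries, 1 count in WM164 and 0 in SKMEL28. The ratio to WM164 was 6970, with a 95% counting interval from 1250 to 275000, and A375 was at least 2210-fold above SKMEL28. ADAMTS6 was also higher in A375, with log2 fold changes of 7.02 (adjusted p = 1.21e-10) against WM164 and 5.57 (adjusted p = 5.24e-10) against SKMEL28 by the edgeR test. These values rest on 0, 0 and 4 counts in the WM164 GFP libraries and 7, 3 and 1 in those of SKMEL28.

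MMP2, the gelatinase that cleaves denatured collagen and type IV collagen, differed between all 3 lines. Its log2 fold change was 3.07 in WM164 against SKMEL28 (adjusted p = 1.05e-13) and 1.70 in A375 against SKMEL28 (adjusted p = 5.89e-10) by edgeR. ADAMTS4, a proteoglycan-cleaving enzyme, had 432 counts over the WM164 GFP libraries and 0 in SKMEL28, at least 137-fold apart. ADAM17, the sheddase of TNF, had smaller differences, with log2 fold changes of -0.35, -0.54 and -0.19 in A375 against WM164, A375 against SKMEL28 and WM164 against SKMEL28.

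Of the 62 members, 9 MMP genes lie side by side on chromosome 11 of GRCh38, at chr11:102520508-102955732, a stretch of 435225 bases. Their levels in these cells were unlike. MMP8 had 16567 counts over all 18 libraries, MMP1 had 2252 and MMP3 had 424, whereas MMP10 had 54, MMP13 had 9, MMP20 had 6, MMP27 had 5, and MMP7 and MMP12 had 0.

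With MAFG in WM164 cells, 7 of the 12 secreted ADAMTS proteases tested rose past the adjusted p of 0.05, and the other 7 of the family were too low to be tested. Of those that rose, ADAMTS3 did not pass in 3 of 6 other fits or in 4 of 6 that left out a library. ADAMTS14 did not pass in 1 of 6 other fits. Of the 30 members tested, 9 were called, 8 higher and 1 lower, which is 30% of them against 6.94% of all 15919 genes tested (4.94% higher and 2% lower). Without the limit on the fold change, 11 rose and 4 fell, 50% against 31.8% of all genes (16.2% higher and 15.6% lower). The MAFG and GFP libraries did not overlap for 20 members (66.7%, against 43.4% of all genes). The ADAMTS genes made up 6 of the 8 called higher, from 12 tested, and 0 of them fell. Their median log2 fold change was 1.10, and that of all genes was 0. ADAMTS6 (0, 0 and 4 counts with GFP) and ADAMTS5 (15, 8 and 5) passed the count filter only through the MAFG libraries. Such entry favours genes higher with MAFG, and neither gene was tested where every library needed 10 counts. In bulk RNA, fewer cells with a transcript and less of it per cell cannot be told apart.

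ADAMTS9, which cleaves proteoglycans such as versican and aggrecan, led them. It was at 127, 134 and 131 CPM in the GFP libraries and at 710, 713 and 769 CPM in the MAFG libraries. All MAFG libraries lay far above all GFP libraries (log2 fold change 2.48 ± 0.06, adjusted p = 1.22e-15, edgeR). In TPM it went from 21.9 ± 3.36 to 139 ± 5.24, which made it the highest member in WM164 MAFG cells and 88.5% of the summed TPM of the ADAMTS genes. ADAMTS9 lies at chr3:64515654-64688000 and overlaps the antisense genes ADAMTS9-AS1 and ADAMTS9-AS2, whose reads cannot be told apart from its own unless counting used the strand.

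ADAMTS1, another proteoglycan-cleaving enzyme, was at 28.1, 30.4 and 27.3 CPM with GFP and at 60.2, 60.5 and 58.7 CPM with MAFG. The groups were well apart (log2 fold change 1.06 ± 0.07, adjusted p = 1.53e-09, edgeR). ADAMTS4, of the same group, did not pass the test (log2 fold change 0.11, adjusted p = 0.642, edgeR).

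All 3 procollagen N-proteinases, which trim the amino end of procollagens before fibrils form, rose. ADAMTS2 was at 1.59, 1 and 1.34 CPM with GFP and at 6.25, 5.87 and 5.68 CPM with MAFG (log2 fold change 2.18 ± 0.21, adjusted p = 3.18e-07, edgeR). ADAMTS14 was at 0.778, 0.938 and 0.411 CPM with GFP and at 2.98, 2.55 and 2.36 CPM with MAFG (log2 fold change 1.87 ± 0.34, adjusted p = 3.19e-04, edgeR). The libraries of the groups did not overlap for either gene, but in the model of all 18 libraries ADAMTS14 had an adjusted p of 0.134. ADAMTS3 rose by less (log2 fold change 0.77 ± 0.26, adjusted p = 0.0327, edgeR) and did not pass with DESeq2 (adjusted p = 0.0603) or in 4 of 6 fits that left out a library.

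ADAMTS17, linked to fibrillin-rich microfibrils, was at 1.89, 2.28 and 2.20 CPM with GFP and at 7.02, 8.45 and 7.08 CPM with MAFG. The groups were apart (log2 fold change 1.82 ± 0.17, adjusted p = 2.03e-07, edgeR). ADAMTS6, its relative, had 0, 0 and 4 counts in the GFP libraries and 75, 68 and 128 counts in the MAFG libraries. Its fitted log2 fold change of 5.85 ± 0.63 (adjusted p = 1.09e-06, edgeR) rests on those 4 counts and ranged from 5.25 to 9.47 on leaving out a library.

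Promoter sequences are shown for the 4 called ADAMTS genes that were in the RefSeq promoter table used here, since these genes moved together. Each is the 250 bases before the RefSeq start in GRCh38.p14, 5′ to 3′ on the gene's strand. Capitals mark CACGTG, the E-box bound by MITF and related factors, and CATGTG, the core of the M-box, which reads CACATG on the other strand. Only these short sequences were searched, without flanking bases.
ADAMTS6 (chr5:65481921-65482170, minus strand): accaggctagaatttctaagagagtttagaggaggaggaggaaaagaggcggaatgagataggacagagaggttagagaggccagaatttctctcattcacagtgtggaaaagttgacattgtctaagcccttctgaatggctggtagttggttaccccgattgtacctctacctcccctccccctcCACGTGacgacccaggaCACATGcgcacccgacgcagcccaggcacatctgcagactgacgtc
ADAMTS17 (chr15:100341976-100342225, minus strand): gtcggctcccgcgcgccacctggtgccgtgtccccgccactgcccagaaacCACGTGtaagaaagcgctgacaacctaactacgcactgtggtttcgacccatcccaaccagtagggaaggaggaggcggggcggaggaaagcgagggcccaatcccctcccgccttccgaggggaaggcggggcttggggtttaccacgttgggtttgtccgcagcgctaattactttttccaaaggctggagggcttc
ADAMTS2 (chr5:179345462-179345711, minus strand): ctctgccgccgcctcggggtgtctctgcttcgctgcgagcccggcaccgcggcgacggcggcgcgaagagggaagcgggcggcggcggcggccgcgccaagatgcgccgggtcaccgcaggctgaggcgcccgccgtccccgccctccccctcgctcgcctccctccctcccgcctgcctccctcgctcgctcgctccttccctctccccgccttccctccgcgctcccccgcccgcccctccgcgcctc
ADAMTS14 (chr10:70672256-70672505, plus strand): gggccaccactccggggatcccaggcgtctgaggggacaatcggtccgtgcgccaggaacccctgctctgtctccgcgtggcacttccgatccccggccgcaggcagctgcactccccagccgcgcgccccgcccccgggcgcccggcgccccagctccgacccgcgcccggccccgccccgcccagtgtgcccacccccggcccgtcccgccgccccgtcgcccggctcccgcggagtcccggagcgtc

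ADAMTS6 held CACGTG from 63 to 58 bases before the start, and CATGTG from 46 to 41 bases before it. ADAMTS17 held CACGTG from 199 to 194 bases before the start. The windows of ADAMTS2 and ADAMTS14 held neither. Of the 8 members called higher in WM164, 6 were in the table, and 2 of these held CACGTG, 1 CATGTG, 0 TGCTGA and 0 TGANTCA. Over both strands, CACGTG was in 5 of the 36 members in the table (13.9%) and in 6.34% of all 35116 promoters. ADAM10, whose mRNA did not pass the test in any line, was among the 5. CATGTG was in 2 members (5.56%, against 9.42% of all promoters), TGCTGA, a core of the MAF recognition element, in 3 (8.33%, against 14%) and the AP-1 site TGANTCA in 4 (11.1%, against 6.57%).

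**Figure D2:**
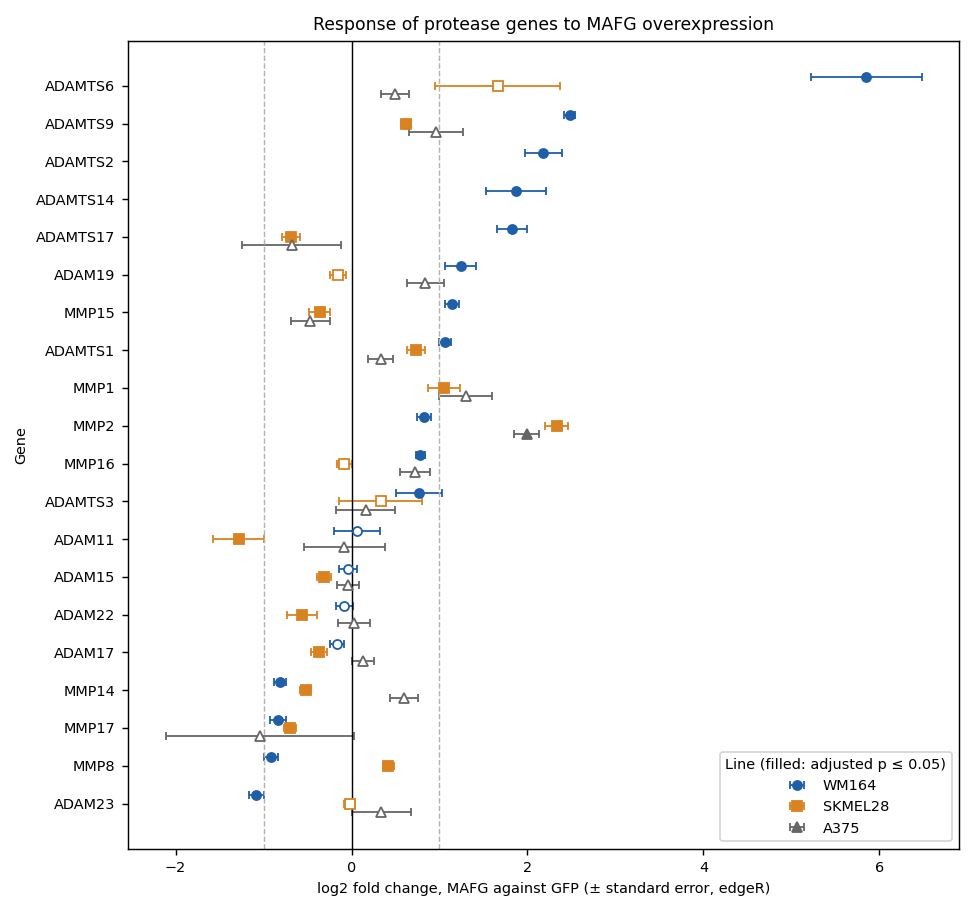
Each point is the log2 fold change of MAFG against GFP with its standard error, for the 20 members that passed the test in some line. Filled points have an adjusted p of 0.05 or less, and dashed lines mark the fold limit. Among them ADAMTS6, ADAMTS9, ADAMTS2, ADAMTS14 and ADAMTS17 lie right of the limit in WM164, MMP2 does in SKMEL28 and A375, and MMP14, MMP17, MMP8 and ADAM23 lie left of 0 in WM164.

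The membrane-type MMPs of WM164 went in both directions. MMP15 (MT2-MMP) was at 53.6, 49.2 and 45 CPM with GFP and at 111, 117 and 97.5 CPM with MAFG (log2 fold change 1.14 ± 0.08, adjusted p = 2.28e-09, edgeR). MMP16 (MT3-MMP) was at 220, 247 and 236 CPM with GFP and at 413, 402 and 392 CPM with MAFG (log2 fold change 0.78 ± 0.05, adjusted p = 3.98e-09, edgeR). MMP14 was at 263, 258 and 228 CPM with GFP and at 146, 151 and 131 CPM with MAFG (log2 fold change -0.81 ± 0.07, adjusted p = 3.16e-08, edgeR). For these 3 genes no MAFG library overlapped a GFP library. MMP17 fell too (log2 fold change -0.84 ± 0.09, adjusted p = 1.01e-06, edgeR). The summed TPM of the MMP genes was 181 ± 12.3 with GFP and 173 ± 11 with MAFG, with overlapping libraries.

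MMP2 was at 29.9, 32.0 and 29.0 CPM with GFP and at 53.0, 57.9 and 49.7 CPM with MAFG in WM164. It rose by less than the fold limit (log2 fold change 0.82 ± 0.08, adjusted p = 1.59e-07, edgeR). MMP8 was at 37.7, 36.4 and 39 CPM with GFP and fell to 19.1, 20.4 and 20.1 CPM with MAFG (log2 fold change -0.92 ± 0.08, adjusted p = 3.47e-08, edgeR).

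Among the ADAM genes of WM164, the broadly expressed sheddases did not pass the test. Log2 fold changes in edgeR were -0.11 for ADAM10 (adjusted p = 0.105), -0.17 for ADAM17 (adjusted p = 0.101) and -0.06 for ADAM9 (adjusted p = 0.45). For ADAM10 and ADAM17, all MAFG libraries still lay slightly below all GFP libraries. Without GFP replicate 1, ADAM17 passed the test (log2 fold change -0.22, adjusted p = 0.046, edgeR). ADAM19, a catalytically active member known from heart development, was at 3.14, 4.38 and 2.61 CPM with GFP and at 7.48, 8.42 and 8.18 CPM with MAFG (log2 fold change 1.24 ± 0.18, adjusted p = 2.62e-05, edgeR). ADAM19 overlaps the protein-coding genes CYFIP2 and NIPAL4 on the other strand and ENSG00000285868 on its own. Reads from the other strand cannot be told apart from its own unless counting used the strand. ADAM23, which lacks the catalytic site and binds integrins, was at 24.0, 26.7 and 24.1 CPM with GFP and at 11.5, 11.5 and 12.3 CPM with MAFG (log2 fold change -1.08 ± 0.09, adjusted p = 3.20e-08, edgeR). It was the 1 member called lower.

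**Figure D3:**
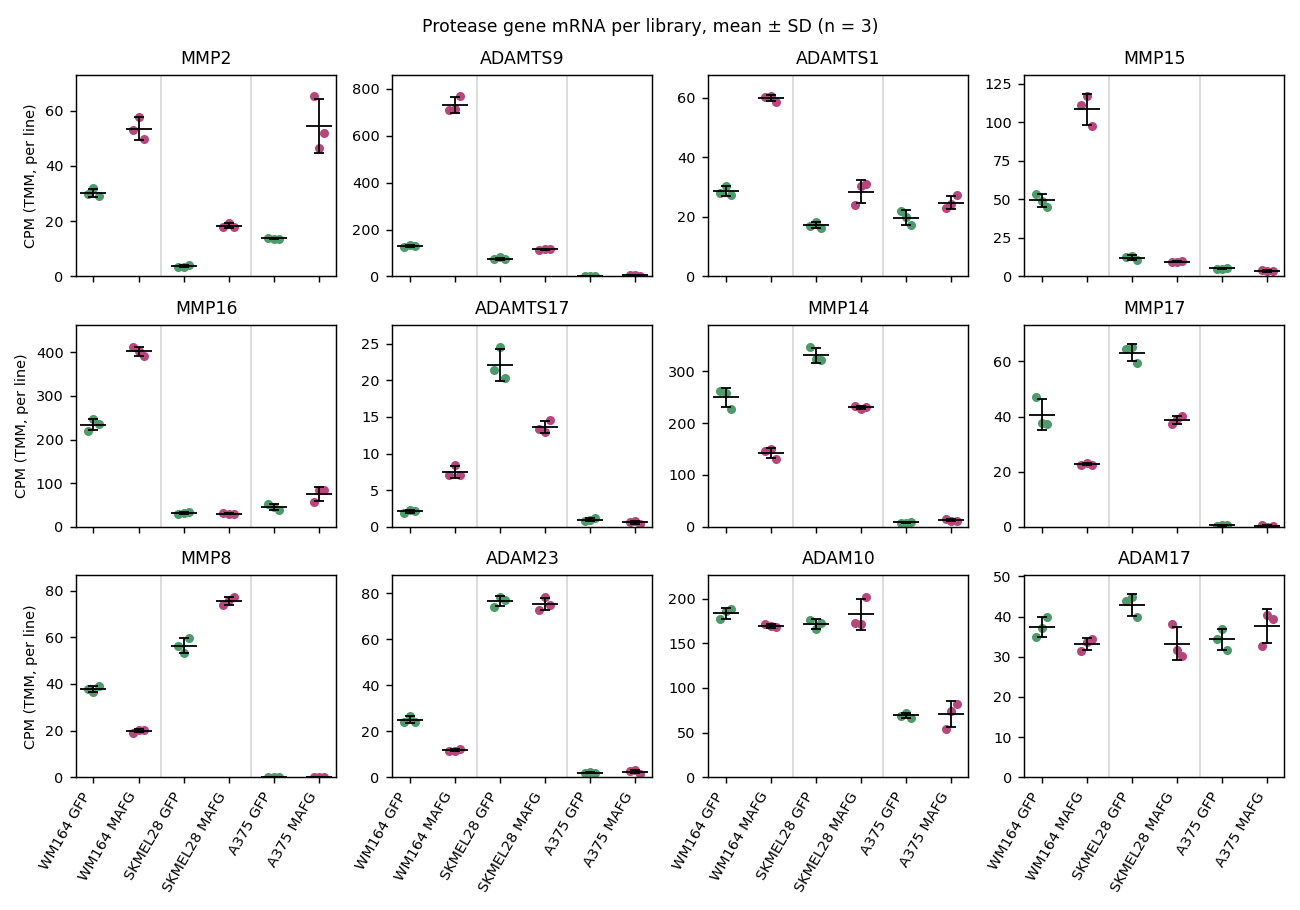
CPM of 12 members in each library, with the mean and SD of 3 libraries, on axes from 0, with GFP in green and MAFG in purple, for genes picked after their values were seen. MMP2 is higher with MAFG in each line, MMP14 is lower with MAFG in WM164 and SKMEL28, and ADAM10 overlaps between GFP and MAFG in SKMEL28 and A375.

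In SKMEL28 cells, 3 of 26 members tested were called, MMP2 and MMP1 higher and ADAM11 lower, which is 11.5% against 4.74% of all 15523 genes (1.76% higher and 2.98% lower). Without the fold limit, 5 rose and 8 fell, 50% against 29.9% of all genes (14.6% higher and 15.3% lower). Groups did not overlap for 14 members (53.8%, against 43% of all genes). MMP2 was at 3.34, 3.46 and 4.10 CPM with GFP and at 17.9, 19.3 and 17.8 CPM with MAFG. The groups were far apart (log2 fold change 2.33 ± 0.13, adjusted p = 2.76e-09, edgeR). As for ADAMTS9, reads of MMP2 and of MMP1 cannot be told apart from those of the genes they overlap on the other strand, MMP2-AS1 and WTAPP1, unless counting used the strand.

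MMP1, the interstitial collagenase, was at 3.95, 2.62 and 3.57 CPM with GFP and at 7.15, 6.78 and 7.32 CPM with MAFG (log2 fold change 1.05 ± 0.18, adjusted p = 3.45e-04, edgeR). Without GFP replicate 2 its log2 fold change was 0.91, under the fold limit. ADAM11, an inactive relative found mainly in the nervous system, was at 2.61, 2.62 and 2.75 CPM with GFP and at 0.958, 0.924 and 1.40 CPM with MAFG (log2 fold change -1.28 ± 0.29, adjusted p = 0.00351, edgeR). The groups did not overlap for either gene.

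Of the members tested in SKMEL28, 14 were membrane-type MMP or ADAM genes, and 7 of these fell, as did 1 of the other 12. Of all genes tested in SKMEL28, 15.3% fell. The same pool had 3 of 15 fall in WM164, against 1 of the other 15, and 0 of 16 in A375. The pool was not 1 of the role groups used elsewhere and was not fixed before the values were seen, so these counts only describe the data. Both proteoglycan-cleaving ADAMTS tested rose. MMP14 was at 348, 323 and 322 CPM with GFP and at 233, 227 and 232 CPM with MAFG (log2 fold change -0.52 ± 0.06, adjusted p = 3.69e-06, edgeR). MMP17 (log2 fold change -0.70), ADAM17 (-0.37), ADAM15 (-0.31), ADAM22 (-0.56) and MMP15 (-0.36) also fell by the same test, while ADAM10 did not pass the test (log2 fold change 0.09, adjusted p = 0.372, edgeR). ADAMTS9 (log2 fold change 0.62, adjusted p = 1.68e-06) and ADAMTS1 (log2 fold change 0.73, adjusted p = 6.88e-05) rose by edgeR. ADAMTS17 fell (log2 fold change -0.69, adjusted p = 8.81e-05) and MMP8 rose (log2 fold change 0.42, adjusted p = 9.65e-05), by the same edgeR test. The fall of MMP15 (adjusted p = 0.0397) was lost in 5 of 8 other fits, DESeq2 and the model of all 18 libraries among them, and in 5 of 6 fits that left out a library (adjusted p from 0.055 to 0.141). That of ADAM22 (adjusted p = 0.0214) was lost on both TPM scales and in 3 of the 6 (adjusted p from 0.0593 to 0.0735), and that of ADAM15 (adjusted p = 0.0106) in the model of all 18 libraries (adjusted p = 0.1) and without GFP replicate 1 (adjusted p = 0.0764). ADAMTS1 and MMP8 did not pass on either TPM scale.

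WM164 and SKMEL28 had 22 members tested in common, and 8 of them (36.4%) passed the test in both lines, against 13.1% of the 14357 genes tested in common. MMP2, ADAMTS1 and ADAMTS9 rose in both, MMP14 and MMP17 fell in both, and MMP8, MMP15 and ADAMTS17 moved in opposite directions. In SKMEL28, however, the fall of MMP15 was lost in most other fits, and the rises of ADAMTS1 and MMP8 on the TPM scales. The opposite ones were 37.5% of the 8, and 34.3% of the 1880 genes that passed in both lines.

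In A375 cells, MMP2 was the 1 member called among 31 tested, 3.23% against 0.665% of all 15779 genes (0.646% higher). Groups did not overlap for 12 members (38.7%, against 12.8% of all genes). It was at 14, 13.6 and 13.6 CPM with GFP and at 65.3, 46.4 and 51.9 CPM with MAFG. Each MAFG library was above every GFP library (log2 fold change 1.99 ± 0.14, adjusted p = 6.65e-05, edgeR), and without MAFG replicate 1 the log2 fold change was 1.84. In TPM it went from 3.65 ± 0.613 to 12.1 ± 1.67.

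MMP1 in A375 was at 4.68, 3.46 and 2.18 CPM with GFP and at 6.15, 8.84 and 10.4 CPM with MAFG. The groups did not overlap, but the test was not passed (log2 fold change 1.3 ± 0.30, adjusted p = 0.111, edgeR). Without MAFG replicate 1 it was called (log2 fold change 1.48, adjusted p = 0.0112, edgeR), and so it was with DESeq2 (adjusted p = 0.00631). For MMP16 the log2 fold change was 0.72 (adjusted p = 0.129, edgeR), and 0.89 without that replicate (adjusted p = 0.000852, edgeR). For MMP14 it was 0.60 ± 0.16 (adjusted p = 0.232, edgeR), and 0.45 without that replicate (adjusted p = 0.167, edgeR). In the model of all 18 libraries, which the comparison of responses uses, MMP14 (log2 fold change 0.61, adjusted p = 0.00203), MMP16 (adjusted p = 4.38e-04), ADAM19 (log2 fold change 0.84, adjusted p = 0.00468) and ADAMTS9 (log2 fold change 0.95, adjusted p = 0.00131) passed the edgeR test in A375, all higher with MAFG and under the fold limit.

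**Figure D4:**
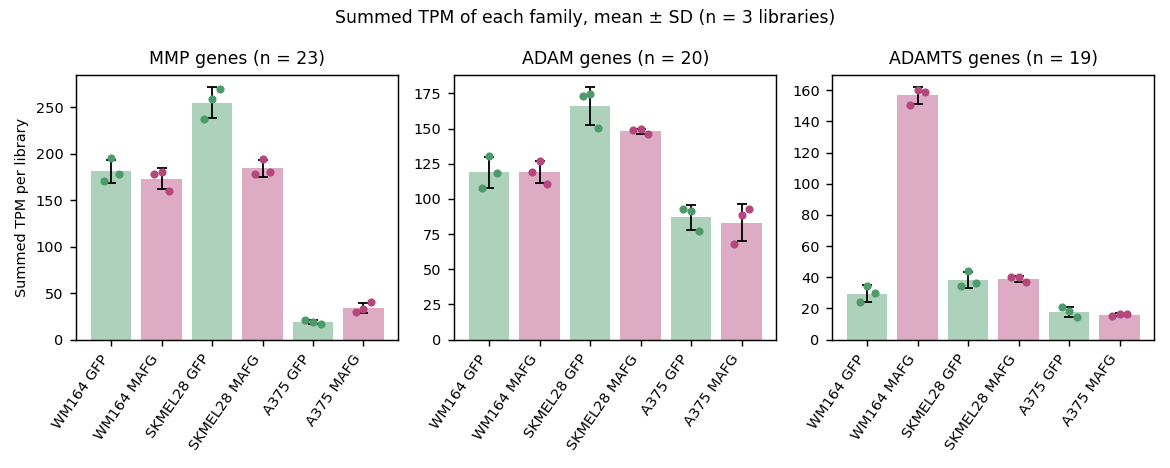
Bars give the mean summed TPM of each family in 3 libraries with the SD, and points the libraries, for 23 MMP, 20 ADAM and 19 ADAMTS genes. The ADAMTS sum goes from 29.5 to 157 in WM164, and the MMP sum from 255 to 185 in SKMEL28 and from 18.7 to 34.1 in A375.

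The lines were then compared in how they responded, by contrasts in the model of all 18 libraries, and each line enters more than 1 of them. Between WM164 and SKMEL28, 9 of 38 members were called (23.7%, against 5.1% of all genes). ADAMTS17 (difference of log2 fold changes 2.51 ± 0.26), ADAMTS9 (1.86) and MMP15 (1.5) responded more upward in WM164, and MMP2 (-1.51) more upward in SKMEL28. Between WM164 and A375, 8 members were called (21.1%, against 4.39%), and between SKMEL28 and A375, 2 (5.26%, against 4.2%), a share near that of all genes. MMP14 was called in both comparisons with A375, with differences of -1.41 and -1.13. Without A375 MAFG replicate 1, the difference of MMP14 between SKMEL28 and A375 was -0.96 and that of MMP2 between WM164 and A375 was -1, so that neither passed the fold limit.

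Genes around the proteases, from lists of 27 inhibitors, activators, partners and relatives, also moved. In WM164, 5 of 21 tested were called (23.8%, against 6.94% of all genes). PCSK5, a proprotein convertase that activates secreted precursors, had 1, 1 and 3 counts in the GFP libraries and 269, 232 and 275 in the MAFG libraries. PLAT, tissue plasminogen activator, was at 149, 153 and 160 CPM with GFP and at 427, 424 and 461 CPM with MAFG (log2 fold change 1.51 ± 0.06, adjusted p = 7.15e-13, edgeR). ADAMTSL4, an ADAMTS-like matrix protein (log2 fold change 2.94), and TSPAN5, a tetraspanin partner of ADAM10 (2.17), were called higher, and TSPAN10, another such tetraspanin (-1.97), was called lower. TSPAN5 had 5, 14 and 13 counts with GFP and 60, 34 and 61 with MAFG. PCSK5 and TSPAN5 passed the count filter only through the MAFG libraries, and were not tested where every library needed 10 counts.

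In SKMEL28, 4 of 20 were called (20%, against 4.74% of all genes). TIMP3, a matrix-bound inhibitor of MMP, ADAM and ADAMTS proteases, was at 676, 648 and 657 CPM with GFP and at 1390, 1440 and 1530 CPM with MAFG (log2 fold change 1.14 ± 0.06, adjusted p = 8.63e-10, edgeR). TSPAN5 (log2 fold change 3.34) was called higher, and the convertase PCSK6 (-5.31) and TSPAN33 (-1.42) lower. PCSK6 had 172, 105 and 106 counts with GFP and 8, 2 and 0 with MAFG. On log2(TPM + 1), TIMP3 (0.95), PCSK6 (-0.89) and TSPAN33 (-0.68) passed the limma test but not the fold limit. On log2(TPM + 0.1), TSPAN33 missed the limma test (log2 fold change -1.36, adjusted p = 0.0531).

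In A375, TIMP3 was the 1 gene called among 21 (4.76%, against 0.665% of all genes). It was at 40.7, 38.1 and 38.0 CPM with GFP and at 127, 114 and 108 CPM with MAFG (log2 fold change 1.58 ± 0.11, adjusted p = 4.98e-05, edgeR), and without MAFG replicate 1 the log2 fold change was 1.51. PLAT passed the test in all 3 lines, the log2 fold change being 1.51 (WM164), 0.55 (SKMEL28) and 0.66 (A375). In A375 it was 0.60 without MAFG replicate 1 (adjusted p = 0.0052, edgeR), but the test was not passed with the replicate block (adjusted p = 0.142), on log2(TPM + 1) (adjusted p = 0.966) or without any 1 of the GFP libraries or MAFG replicate 2 (adjusted p from 0.136 to 0.15). TIMP1, a secreted inhibitor of MMPs, rose in WM164 (log2 fold change 0.49, adjusted p = 4.59e-07) and SKMEL28 (log2 fold change 0.54, adjusted p = 7.47e-06) by edgeR. The inhibitors did not all rise. TIMP3 did not pass the test in WM164 (log2 fold change 0.06, adjusted p = 0.412, edgeR). TIMP2 went from 64.7 ± 7.99 to 55.8 ± 3.61 TPM in WM164, with overlapping libraries. It went from 116 ± 1.29 to 103 ± 2.3 TPM in SKMEL28 and from 32.2 ± 3.17 to 29.7 ± 2.01 TPM in A375.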

How the data were processed

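Total RNA of cultured cells was made into libraries and sequenced as 100-base pairs. The labels name a non-stranded kit and the methods a strand-specific kit, and the strand setting and annotation release are not given in the sources used here. The submitters' processing notes name cutadapt 1.8.1, STAR 2.7.7a, RSEM 1.3.0, DESeq2 and GRCh38. The deposited counts are whole reads per gene, counted by the authors with featureCounts from uniquely aligned reads, and the TPM values, as deposited, have the same sum in each library. Replicates were not pooled. Total counts were 20122172 to 39025042, which limits low genes to counting error.

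Counts were tested with R 4.3.3 and edgeR 4.0.16 (TMM, filterByExpr, quasi-likelihood F test, Benjamini-Hochberg adjustment over all tested genes), on the 6 libraries of a line for MAFG against GFP, and on all 18 for lines and for differences of responses. The call needed an adjusted p no higher than 0.05 and a log2 fold change beyond 1 in either direction. The standard error is the absolute log2 fold change divided by the square root of F. Levels between genes are in TPM. At most 3 counts was the floor, and ratio intervals cover counting error only. Positions and overlaps came from GENCODE, promoters from RefSeq (36 of 62 members matched). The fits were tested on simulated data. Replicates of a condition differed by more than sampling noise in all 18 pairs. The members, gene lists and tests were chosen with earlier results of these data known. Named genes were those called with MAFG, the 4 highest in GFP cells of each line, a fixed set of 11, the largest differences between lines, up to 4 differences of responses per pair of lines, called companion genes, and those at the floor throughout. Others named here passed the test or were chosen after their values were seen. Alternatives were DESeq2 1.42.0, its size factors, other count filters, a replicate block, limma 3.58.1 on log2 TPM with a pseudocount of 1 or 0.1 (minimum TPM 1 in 3 libraries), no fold limit, all 18 libraries in 1 model or only the groups compared, and each library left out. Figures used matplotlib 3.10.9.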

Additional observations from a re-analysis of the deposited data

Results flagged for a closer look

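The response to MAFG differed between lines for several members, by contrasts in the edgeR model of all 18 libraries with Benjamini-Hochberg adjustment. Between WM164 and SKMEL28, the difference of log2 fold changes was 2.51 for ADAMTS17 (adjusted p = 7.45e-07), 1.86 for ADAMTS9 (adjusted p = 5.24e-08), 1.5 for MMP15 (adjusted p = 2.24e-06) and -1.51 for MMP2 (adjusted p = 5.06e-06). Between WM164 and A375, it was 2.5 for ADAMTS17 (adjusted p = 1.99e-05), 5.37 for ADAMTS6 (adjusted p = 8.26e-06), 1.60 for MMP15 (adjusted p = 2.30e-06) and -1.41 for MMP14 (adjusted p = 9.07e-07). Between SKMEL28 and A375, it was -1.13 for MMP14 (adjusted p = 2.22e-05) and 6.69 for ADAMTS16 (adjusted p = 0.0388). The value for ADAMTS6 rests on 0, 0 and 4 counts in the WM164 GFP libraries. The value for ADAMTS16 is fitted against 0 counts in all 3 A375 MAFG libraries, depends on the prior count and is no bound. Its counts were 12, 16 and 0 in the A375 GFP libraries, 9, 5 and 13 in the SKMEL28 GFP libraries and 7, 22 and 16 in the SKMEL28 MAFG libraries, so that groups overlapped in SKMEL28.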

How the results depend on the processing

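In WM164, the count of members called, 9, was 15 without the fold limit and 5 on log2(TPM + 1), where ADAMTS6, ADAM19 and ADAMTS14 were too low to be tested and ADAM23 had -0.99. In SKMEL28, 3 became 13 without the fold limit and 5 with all 18 libraries in 1 model. In A375, 1 became 2 with DESeq2, with no count filter and with all 18 libraries in 1 model, by the addition of MMP1. Leaving out a library gave 9 in WM164, 2 to 3 in SKMEL28 and 1 to 2 in A375. Companion genes called, 5, 4 and 1 in WM164, SKMEL28 and A375, became 12, 14 and 2 without the fold limit. When every library needed 10 counts, 3 of 19 tested were called in WM164 and 2 of 17 in SKMEL28. On log2(TPM + 1) it was 2 of 18 and 1 of 17, and on log2(TPM + 0.1) 3 of 18 in WM164. Between lines with GFP, only 17 members were tested where every library needed 10 counts, and 22 on the TPM scales. The counts below therefore do not compare directly with those of the main fit. The need for 10 counts gave 11, 12 and 9 for A375 against WM164, A375 against SKMEL28 and WM164 against SKMEL28. In the same order log2(TPM + 1) gave 12, 11 and 10, and log2(TPM + 0.1) gave 13 in each comparison with SKMEL28. Differences of responses between WM164 and SKMEL28 went from 9 to 5 of 22 tested on log2(TPM + 1). Between SKMEL28 and A375, 2 became 5 without the fold limit, 4 with DESeq2 and 1 to 3 on leaving out a library. There it was 1 of 17 tested with at least 10 counts and 1 of 22 on log2(TPM + 1). On the TPM scales the median of all genes shifted in WM164 (0.14 and 0.16) and in SKMEL28 (-0.14 and -0.17). The cause of these changes was not tested where none is named.

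Signs changed only for values that did not pass the test. ADAM9 in WM164 had 0.27 on log2(TPM + 1) and 0.29 on log2(TPM + 0.1). In A375, these scales gave -0.08 and -0.08 for ADAM10, -0.12 and -0.13 for ADAMTS1 and -0.21 and -0.38 for ADAM23. On leaving out a library, ADAM11 ranged from -0.12 to 0.19 in WM164 and from -0.31 to 0.22 in A375, ADAM10 from -0.10 to 0.18 in A375, ADAM23 from -0.05 to 0 and MMP3 from -0.12 to 0.94 in SKMEL28. Replicate numbers did not pair the samples (correlations of same-numbered deviations from -0.03 to 0.01), and with the replicate block 9, 3 and 1 members were called in WM164, SKMEL28 and A375, while ADAMTS3 in WM164 (0.76, adjusted p = 0.0526) and MMP15 in SKMEL28 (-0.35, adjusted p = 0.0567) missed the edgeR threshold. Genes under about 1 CPM rest on few counts, and depth limits what could be detected there.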
